A study of Homo sapiens with 3 samples.

Results

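The peaks described here are those of RUNX2 and CBFB around MYC and PVT1 in SAOS2 cells. They were chosen by position alone. A peak was taken when it lay within 1 Mb of the body of MYC or of PVT1, which gave a window of 2.45 Mb on chromosome 8 (hg19, 127747680 to 130199347). The window held 29 of the 9941 RUNX2 peaks (0.292% of that list) and 75 of the 27246 CBFB peaks (0.275%), in 0.0865% of the sequenced genome. Most weight was given to the peaks more than 25 kb from MYC, which were 28 of the 29 RUNX2 peaks and 69 of the 75 CBFB peaks.

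RUNX2 is the RUNX transcription factor that directs bone formation, and CBFB is its partner, which lacks DNA contacts of its own and strengthens the grip of RUNX proteins on DNA. MYC encodes a transcription factor that drives growth and proliferation in many tumors. It lies in a large region with few protein-coding genes, and its enhancers are spread over long distances on either side and differ between tissues. PVT1 is a long non-coding RNA (lncRNA) gene downstream of MYC that is often gained together with it in cancer, and its introns are known to hold enhancers of MYC.

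Chromatin immunoprecipitation followed by sequencing (ChIP-seq) was done in SAOS2 cells, an osteosarcoma line that lacks p53, kept under 20 passages and given no treatment or genetic change. There were 3 samples of 1 library each: RUNX2 ChIP with a custom made antibody, CBFB ChIP with a commercial antibody, and input DNA, which was not analysed here. All libraries came from the same line, so the peaks describe a single tumor genome. With a single library per antibody there were no replicates, no p-values were computed, and every interval given with a share covers counting error only. The lists carry no read counts, so the depth is unknown. The score of a peak depends on depth, and it was used only as a rank within its own list. A percentile of 90 means that 90% of the list had the same or a lower score.

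All 29 RUNX2 peaks lay at or downstream of the start of MYC, and none lay in the 1 Mb upstream of it. MYC itself (ENSG00000136997, plus strand, 128747680 to 128755197) had 1 RUNX2 peak within 25 kb. The body of PVT1 (ENSG00000249859, plus strand, 128806772 to 129199347) held 19 RUNX2 peaks, which is 65.5% of those in the window (exact 95% interval 45.7 to 82.1), although it takes up 16.01% of the window. The remaining 9 RUNX2 peaks lay beyond the end of PVT1. CBFB peaks followed the same layout, with 2 upstream of MYC, 6 within 25 kb of MYC, 1 between MYC and PVT1, 38 in PVT1 and 28 beyond it. The CBFB share in PVT1 was 50.7% (38.9 to 62.4).

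**Figure D1:**
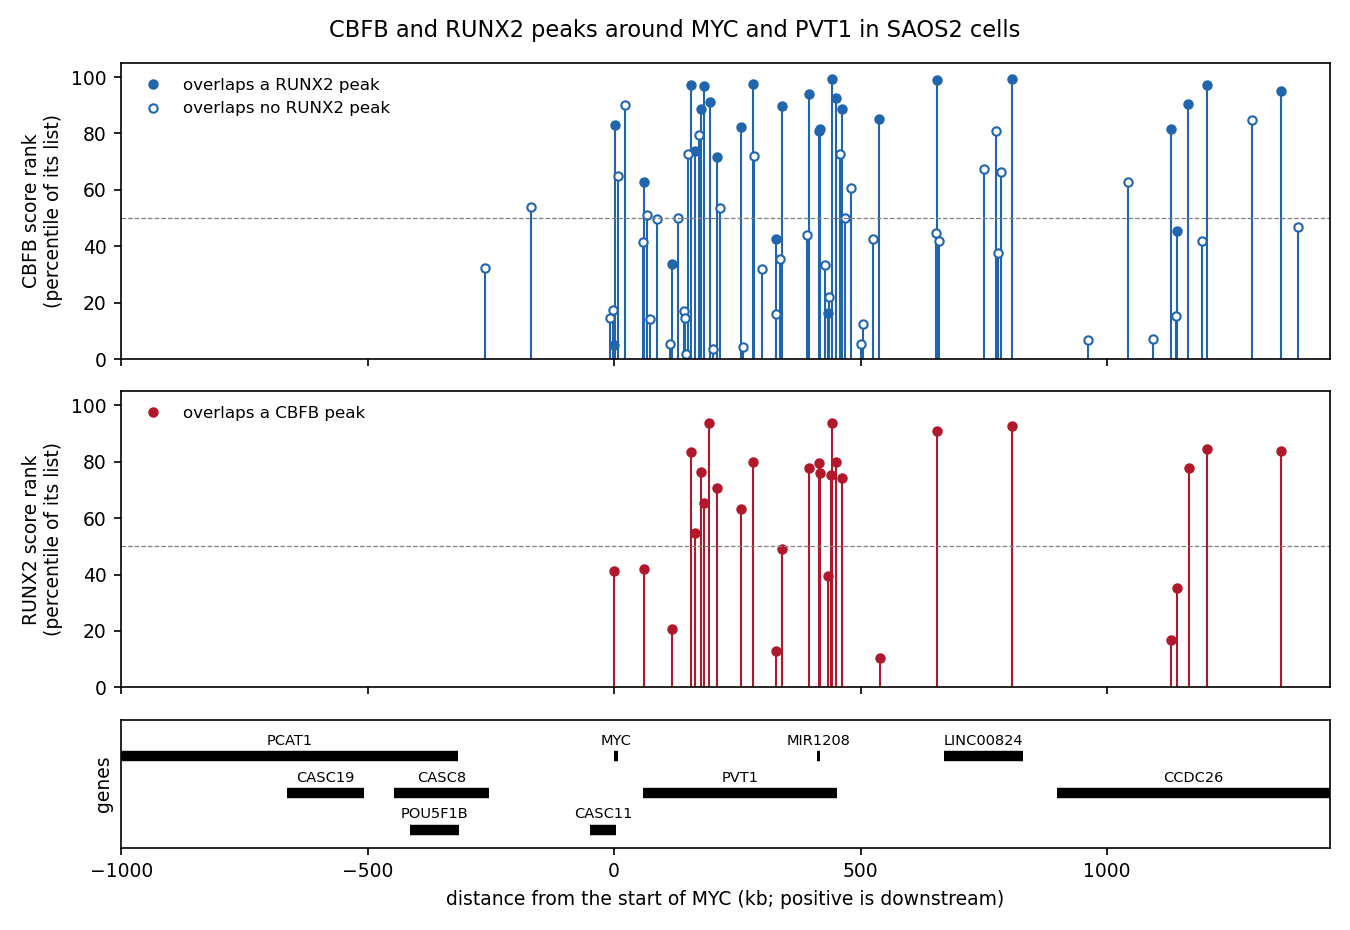
Score rank of each CBFB peak (top, blue) and RUNX2 peak (middle, red) against the distance from the start of MYC in kb, with named genes as black bars (bottom, MIR1208 and other very short genes widened to be visible). Each stem is 1 peak, filled CBFB points overlap a RUNX2 peak, open ones do not, and the dashed line is percentile 50. All 29 RUNX2 peaks and 71 of the 75 CBFB peaks lie downstream of the start of MYC.

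At MYC, the only RUNX2 peak (128747505 to 128748913) covered the start of the gene. Its score was 74.58, at percentile 41.1 and rank 5853, which is below the middle of the RUNX2 list. Its midpoint lay 529 bp downstream of the start, in the untranslated part of MYC and in an intron of CASC11, a lncRNA gene on the opposite strand. CBFB gave 2 separate peaks under this RUNX2 peak. The first (128747432 to 128748610) shared 1106 bp with it, 78.5% of the RUNX2 peak, but had a score of only 53.99, at percentile 4.82. The second (128748725 to 128752105) was much higher ranked, with a score of 316.41 at percentile 83.0, and shared 189 bp, or 13.4% of the RUNX2 peak. Most of the RUNX2 peak thus lay under the low-ranked CBFB peak.

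The other 4 CBFB peaks near MYC overlapped no RUNX2 peak. In the CASC11 intron upstream of MYC, there was a peak of score 62.35 (128737921 to 128739305) and another of score 65.68 (128745429 to 128747127). A peak of score 172.83 (128754960 to 128756396) covered the end of MYC. The highest-ranked CBFB peak within 25 kb of MYC was intergenic (128767902 to 128769803), with its midpoint 21.2 kb downstream of the start. Its score was 455.84, at percentile 90.03, and no RUNX2 peak was called there. Within 25 kb of MYC, the single RUNX2 peak was thus at percentile 41.1. The 6 CBFB peaks ranged from percentile 4.82 to 90.03, with a median of 41.1.

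PVT1 begins 59.1 kb downstream of the start of MYC. A RUNX2 peak (128806984 to 128808691) and a CBFB peak (128807070 to 128809103) lay just inside it and shared 1622 bp. Both midpoints fell in annotated exon sequence, 1065 and 1314 bp past the gene start. The scores of these peaks were 75.34 (percentile 42.0) and 163.49 (percentile 62.6). The RUNX2 midpoint was 9 bp from an annotated transcript start of PVT1, and the peak held 4 copies of the RUNX core motif. The RUNX2 peaks nearest the starts of both genes thus had nearly the same rank, at percentiles 41.1 and 42.0, and most of the RUNX2 peaks deeper in PVT1 ranked higher.

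The first long stretch of binding in PVT1 ran from 112 to 216 kb downstream of the start of MYC (128859643 to 128963709). It held an unbroken run of 16 CBFB peaks and 7 RUNX2 peaks, each under a different CBFB peak. The CBFB peaks covered 46.5% of its 104 kb. The highest-ranked RUNX2 peak of the stretch (128939950 to 128941909) had a score of 248.31 at percentile 93.7, and its CBFB peak (128938327 to 128944905) had a score of 498.44 at percentile 91.3. That CBFB peak was also the widest in the window, at 6579 bp. The order of ranks differed between the antibodies within this stretch. The top CBFB peak (128900449 to 128906102) had a score of 915.52 at percentile 97.3, over a RUNX2 peak (128901927 to 128905197) of 159.58 at percentile 83.3. This RUNX2 peak, 3271 bp wide, was the widest RUNX2 peak of the window and held 6 copies of the RUNX core. A CBFB peak of 842.68 (128927325 to 128932068, percentile 96.7) lay over a RUNX2 peak of only 106.69 (128929324 to 128930538, percentile 65.5). The other RUNX2 peaks of the stretch had scores of 59.92, 89.94, 117.03 and 132.29, at percentiles 20.7 to 76.3.

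Between 257 and 396 kb downstream of the start of MYC, PVT1 held 5 further RUNX2 peaks at wider spacing. A CBFB peak of 947.43 (129027731 to 129029625, percentile 97.5) overlapped a RUNX2 peak of 143.20 (129028027 to 129029712, percentile 79.8) that held 6 copies of the RUNX core, the nearest 42.5 bp from its midpoint. A CBFB peak of 608.32 (129141989 to 129143859, percentile 93.9) overlapped a RUNX2 peak of 136.80 (129142422 to 129143580, percentile 77.8). These pairs ranked high in both lists. The other 3 RUNX2 peaks there had scores of 102.71, 55.65 and 83.01, with CBFB partners of 304.29, 103.47 and 443.93.

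The second long stretch crossed the 3′ end of PVT1 and ran from 414 to 482 kb downstream of the start of MYC (129161843 to 129229563). In 67.7 kb, 11 CBFB peaks and 7 RUNX2 peaks were found, and 6 of the former overlapped at least 1 of the latter. It opened at MIR1208, a microRNA gene inside PVT1 (129162362 to 129162434), which lay wholly inside a RUNX2 peak (129162018 to 129163010, score 142.11, percentile 79.5) and a CBFB peak (129161843 to 129163219, score 290.15, percentile 81.0). The next pair had scores of 131.68 for RUNX2 and 298.62 for CBFB. The highest-ranked RUNX2 peak of the whole window lay farther on (129188703 to 129189993), in an intron of PVT1 10.0 kb before its last base, with a score of 250.33 at percentile 93.8 and rank 615. Under the same CBFB peak (129186919 to 129190401, score 1544.84, percentile 99.3, rank 187) lay a second RUNX2 peak (129187377 to 129188660, score 129.47, percentile 75.4), separated from the first by 0.042 kb. The last pair inside PVT1 had a RUNX2 score of 143.29 and a CBFB score of 541.18, and the first RUNX2 peak after its end, 10.5 kb past it, had a score of 126.25 with a CBFB partner of 419.27. The stretch also held the pair that went furthest against the general order of ranks, a RUNX2 peak of 73.21 (129180161 to 129181525, percentile 39.5) inside a CBFB peak of only 64.20 (129179520 to 129182012, percentile 16.2).

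Beyond PVT1, the highest-ranked pairs were not part of long stretches. An intergenic RUNX2 peak (129402908 to 129404075) 656 kb downstream of the start of MYC had a score of 214.38 at percentile 91.0, inside a CBFB peak (129401386 to 129404344) of 1386.82 at percentile 99.1 and rank 254. This CBFB peak was flanked closely by CBFB peaks of 108.41 (129400187 to 129401243) and 102.27 (129404939 to 129407582), which had no RUNX2 partner. In an intron of LINC00824, a lncRNA gene on the minus strand, a RUNX2 peak (129552566 to 129555376) 806 kb downstream of the start had a score of 233.95 at percentile 92.8 and 4 copies of the RUNX core. Its CBFB peak (129552296 to 129555925), with a score of 1711.28 at percentile 99.5 and rank 148, was the highest-ranked CBFB peak of the window. LINC00824 held 4 more CBFB peaks, with scores of 185.51, 287.03, 94.09 and 180.47, and no other RUNX2 peak. After this pair came the longest RUNX2 gap inside the window, 320 kb (129555376 to 129875641), which held 3 CBFB peaks. The lowest-ranked RUNX2 peak, named after its values were seen (129286180 to 129287049, score 54.68, percentile 10.5), was also intergenic and beyond PVT1, under a CBFB peak of 351.50 at percentile 85.2.

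The far end of the window lay in CCDC26, a lncRNA gene on the minus strand that runs past the window. Its introns held 5 RUNX2 and 12 CBFB peaks in the part that was covered. The RUNX2 scores were 57.65, 69.65, 136.28, 166.02 and 163.05, in the order of distance from MYC, with CBFB partners of 295.71, 109.59, 468.93, 914.96 and 671.81. The peaks farthest from MYC were thus not the lowest ranked. The pair of 166.02 and 914.96 (RUNX2 129949848 to 129951183, percentiles 84.5 and 97.3) lay 1203 kb from the start of MYC. The last RUNX2 peak of the window (130099943 to 130101001), of score 163.05 and percentile 83.9, lay 1353 kb from that start with a core 35.5 bp from its midpoint. A CBFB peak of 344.62 in the same gene (130040010 to 130041456, percentile 84.8) had no RUNX2 partner.

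Upstream of MYC the picture was nearly empty. The nearest RUNX2 peak on that side (126619472 to 126620799, score 304.79, percentile 96.2) lay outside the window, and 2127 kb without a RUNX2 peak separated it from the peak at the start of MYC. CBFB had 4 peaks upstream of the start, of which only 2 were beyond 25 kb. One lay in an intron of CASC8 (128484254 to 128485762, score 84.92, percentile 32.1) and the other was intergenic (128579000 to 128580133, score 131.67, percentile 53.8). No peak of the window, in either list, lay within 25 kb of PCAT1, CASC19, PRNCR1, CCAT2 or POU5F1B. Besides CASC8 and CASC11, these are the genes of the locus list found by name on that side. PCAT1 begins before the window, however, and a CBFB peak outside the window (127546461 to 127547906, score 105.07, percentile 43.2) lay within 25 kb of it. POU5F1B, a copy of the pluripotency gene POU5F1, was the only protein-coding gene of the window besides MYC. In all, 12 of 22 listed locus genes were found by name in the window. Of these, 6 had a RUNX2 peak and 7 a CBFB peak of the window within 25 kb, which leaves out the CBFB peak near PCAT1. The background, counted over the full lists, was 36.2% and 62.3% of all protein-coding genes, although most listed genes are non-coding. The listed genes are also not independent, since MIR1205, MIR1207 and MIR1208 lie inside PVT1 and CASC11 overlaps MYC. Their peaks are ones already counted for PVT1 and MYC. The numbers that MACS gave its peaks ran without a gap through both lists, so the empty stretch is a property of the lists as they were called.

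Peaks were much denser in PVT1 than elsewhere. There were 48.4 RUNX2 peaks per Mb in PVT1 against 3.50 per Mb over chromosomes 1 to 22 and X, a ratio of 13.8, and 2.09 per Mb on the rest of chromosome 8. Beyond PVT1 there were 9 RUNX2 peaks per Mb. For CBFB the density was 96.8 per Mb in PVT1, 28 beyond it and 4 in the 1 Mb upstream of MYC, against 9.59 over the genome and 6.30 on the rest of chromosome 8. CBFB was thus below its genome mean upstream of MYC and above it on the other side. Over the whole window the ratio to the genome was 3.38 for RUNX2 and 3.19 for CBFB. The input DNA was not analysed here, so the number of DNA copies of MYC and PVT1 in SAOS2 cells and peak density cannot be told apart.

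**Figure D2:**
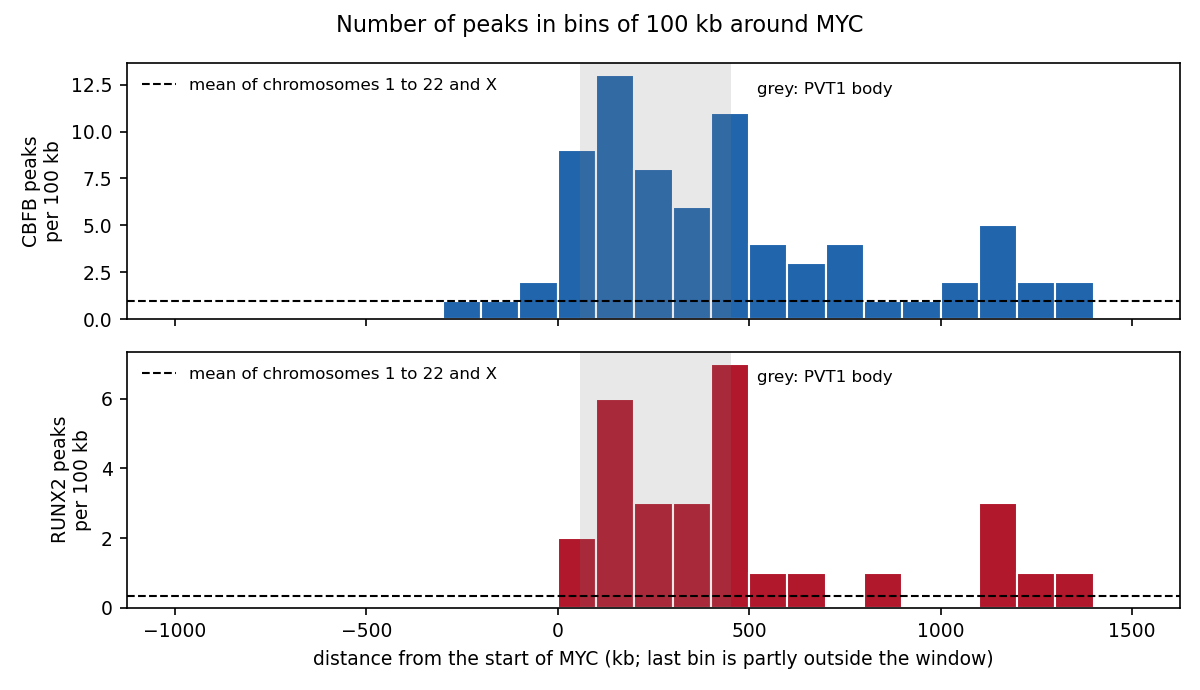
Number of CBFB peaks (top) and RUNX2 peaks (bottom) in bins of 100 kb by distance from the start of MYC in kb, with the body of PVT1 in grey and the mean of chromosomes 1 to 22 and X as a dashed line. The fullest bins are 100 to 200 kb (13 CBFB and 6 RUNX2 peaks) and 400 to 500 kb (11 and 7 peaks) downstream.

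CBFB peaks in the window came in runs. A run was broken where the gap between neighbouring CBFB peaks exceeded the distance over which super-enhancers are commonly stitched, and 49 of the 74 gaps were shorter than that. Of its 75 CBFB peaks, 42 (56.0%, 44.1 to 67.5) lay in 5 runs of at least 4 peaks, in which the longest gap was 11.9 kb, while 13.7% of the whole list did. These runs also held 18 of the 29 RUNX2 peaks. The whole list had 742 such runs, of which 12 had 11 or more peaks and 4 had 16 or more. Both long stretches were thus among the longest, although the second ran on past the end of PVT1. The median gap between neighbouring peaks was 6.22 kb for CBFB and 20.1 kb for RUNX2.

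To see how unusual this layout was, MYC was set beside all 20098 protein-coding genes, counting peak midpoints within 1 Mb on either side of each gene start. MYC had 0 RUNX2 peaks upstream and 24 downstream. The median gene had 8 in all, and 94.6% of genes had as many as MYC or fewer. For CBFB, MYC had 4 upstream and 60 downstream, against a median of 24 in all, and 96.2% of genes had as many or fewer. It was the one-sidedness that set MYC apart. Of the 1227 genes with at least 24 RUNX2 peaks, only MYC had them all on 1 side (0.0815%), a measure that was chosen with this pattern in view. Neighbouring genes share peaks and are not independent, so no test was made.

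PVT1 was compared with the 5129 genes of 100 kb or more in the same way. It held 19 RUNX2 and 38 CBFB peaks in 393 kb. RUNX1, the RUNX gene of blood formation, held 22 RUNX2 and 41 CBFB peaks, but over 1217 kb. Per 100 kb, PVT1 had 4.84 RUNX2 and 9.68 CBFB peaks and stood at place 9 in both lists, and SEPTIN9, a septin gene of the cytoskeleton, had 6.82 RUNX2 peaks. Among 1417 lncRNA genes of this size, PVT1 had the most peaks of both lists by number, and per 100 kb it stood at place 3 in both. The median long gene had 0 RUNX2 peaks and 1 CBFB peak.

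**Figure D3:**
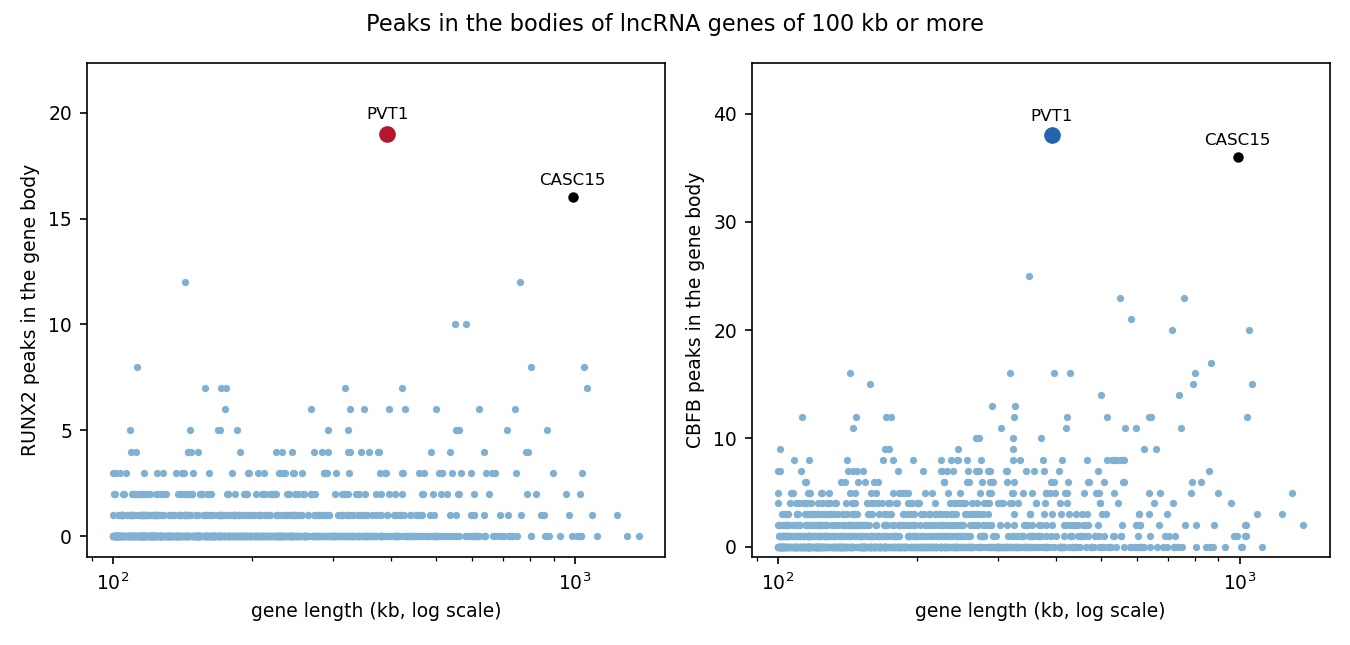
RUNX2 peaks (left) and CBFB peaks (right) with a midpoint in the gene body against gene length in kb on a log scale, for 1417 lncRNA genes of 100 kb or more. Each point is a gene, and the large point is PVT1, which has the most peaks in both panels, 19 for RUNX2 and 38 for CBFB, followed by CASC15 with 16 and 36.

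The scores of the RUNX2 peaks in the window ran from 54.68 to 250.33 with a median of 129.47, and the median percentile was 75.4 (95% interval from order statistics, 49.0 to 79.8), against 50.9 (45.1 to 56.0) for the 293 RUNX2 peaks on the rest of chromosome 8. These intervals overlap. In the window, 20 of 29 peaks (69.0%, 49.2 to 84.7) were at or above the list's median score. The middle of the list, percentile 50, lies inside both intervals for the window. Of the 29 peaks, 4 passed percentile 90 (13.8%, 3.89 to 31.7) and none passed 95, where by definition about 10% and 5% of the list do. Counts this small cannot be told from those shares. When the list was divided into 5 score groups of equal size, the window had 3, 3, 4, 12 and 7 RUNX2 peaks from the lowest group to the highest. The median percentile was 75.4 for the 19 peaks in PVT1 and 77.6 for the 9 beyond it, and the single peak near MYC was at 41.1.

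The median percentile of the CBFB peaks was 53.4 (42.5 to 72.1), close to the middle of their list. The highest score group held 24 of the 75 peaks (32.0%, 21.7 to 43.8) and the lowest held 17 (22.7%, 13.8 to 33.8), where each group makes up 20% of the list, and the groups between held 7, 15 and 12. Scores ran from 51.31 to 1711.28. At the top, 13 CBFB peaks passed percentile 90, 7 passed 95 and 3 passed 99. The 10 CBFB peaks of the highest scores all lay over a RUNX2 peak. They were at percentile 92.4 or higher. The whole list gave 84.3% for its highest score group, which also takes in lower ranks than these.

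Every RUNX2 peak of the window overlapped a CBFB peak by 1 bp or more, 29 of 29 (100%, 88.1 to 100), against a background of 94.2% over the whole list and 94.5% on the rest of chromosome 8. The background lies inside the interval, so the full overlap is close to what the list gives as a whole. The share depended on the overlap required. When at least 50% of each peak had to be shared, it was 58.6% in the window and 75.2% in the whole list. With midpoints within 200 bp it was 41.4% (23.5 to 61.1) and 68.8%. The window then lay below its list, but only with the midpoint rule was the list value outside the window's interval. In the other direction, 29 of 75 CBFB peaks (38.7%, 27.6 to 50.6) overlapped a RUNX2 peak, against 33.8% of the whole CBFB list and 29.9% on the rest of chromosome 8. The share was 18 of 38 in PVT1 (47.4%, 31.0 to 64.2), 9 of 28 beyond it (32.1%, 15.9 to 52.4), 2 of 6 near MYC and 0 of 2 upstream. These intervals are wide and overlap each other and the background. Under the stricter definitions the CBFB share was 22.7% (13.8 to 33.8) against 27.4% of its list, and 16% (8.55 to 26.3) against 25.1%. Both list values lie inside these intervals, so the CBFB shares are near the background.

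Whether a CBFB peak had a RUNX2 partner followed its rank. In the highest CBFB score group, 21 of 24 peaks in the window (87.5%, 67.6 to 97.3) overlapped a RUNX2 peak, and 84.3% did in the whole list. From the lowest group to the fourth the counts were 2 of 17, 1 of 7, 2 of 15 and 3 of 12, and the whole list gave 5.76%, 11.6%, 22.4% and 44.9%. The 3 CBFB peaks of the highest group with no RUNX2 partner were those of 455.84 near MYC, 287.03 in LINC00824 and 344.62 in CCDC26. The median percentile of overlapping CBFB peaks was 88.7 (81.0 to 93.9), higher than the 79.95 (79.3 to 80.5) of overlapping CBFB peaks in the whole list.

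Each RUNX2 peak was then set beside its CBFB partner, the one with the highest score if there were several. The CBFB percentile was the higher one in 27 of 29 pairs (93.1%, 77.2 to 99.2), against 84.8% of all 9365 pairs. The exceptions were the pair of 248.31 and 498.44 and the pair of 73.21 and 64.20, both in PVT1. At the start of MYC the order rests on the choice of partner, since the RUNX2 peak at percentile 41.1 shared most of its length with the CBFB peak at 4.82 and only its edge with the one at 83.0 that was used, whose midpoint was 2206 bp away. In 13 of the pairs (44.8%, 26.4 to 64.3) the CBFB peak was in the top 10% of its list, against 28.9% of all pairs, while the RUNX2 peak was in its top 10% in 4 pairs (13.8%, 3.89 to 31.7), against 10.6%. The ranks rose together, with a Spearman's rho of 0.769 over these 29 pairs and 0.602 over all pairs, given as a description because the pairs share their libraries. The RUNX2 peak lay wholly inside its CBFB partner in 26 of 29 pairs (89.7%, 72.6 to 97.8), against 82.5%. Its midpoint was a median of 291 bp from that of its partner, against 96 bp in the whole list.

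**Figure D4:**
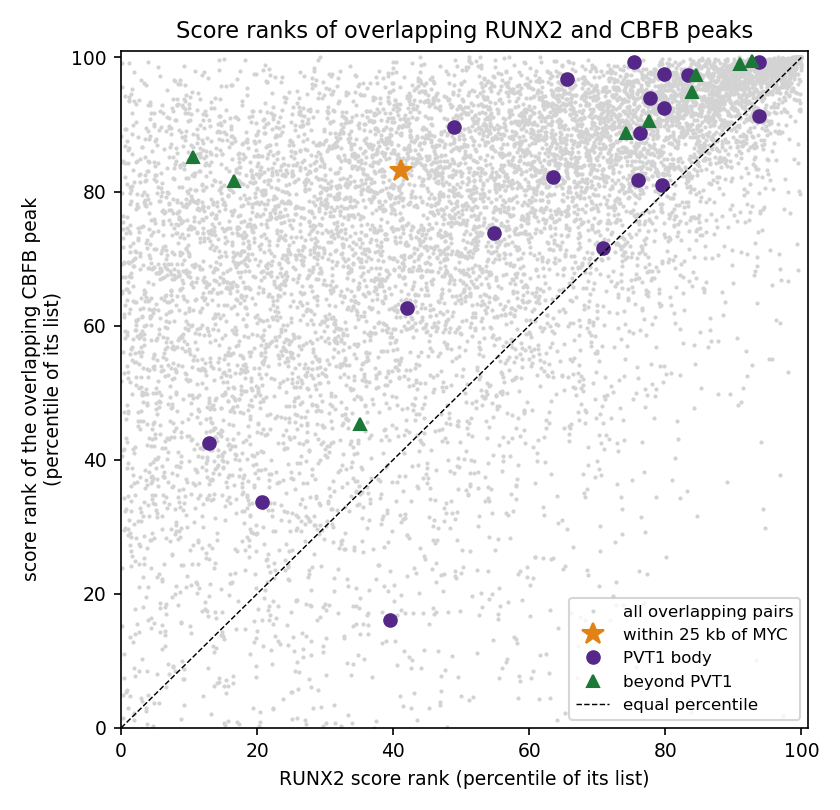
Percentile of each RUNX2 peak in its list against the percentile of its highest-scoring overlapping CBFB peak, for all 9365 pairs (grey) and the 29 pairs around MYC and PVT1 (star near MYC, circles in PVT1, triangles beyond PVT1). Points above the dashed line have the higher percentile for CBFB, as 27 of the 29 do, and the MYC pair sits at 41.1 and 83.0, although the other CBFB peak over that RUNX2 peak is at 4.82.

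CBFB peaks of the window were wide. Their median width was 1744 bp, against 1148 bp in the whole list, and 14 of 75 (18.7%, 10.6 to 29.3) spanned at least 3 kb, against 3.37% of the list and 3.39% on the rest of chromosome 8. Both values lie below the interval. Of the 29 CBFB peaks with a RUNX2 partner, 12 (41.4%, 23.5 to 61.1) were this wide, against 6.61% of such peaks in the whole list, and 2 of the 46 without a partner were (4.35%, 0.531 to 14.8), against 1.71%. RUNX2 peaks had a median width of 1308 bp, against 937 bp in the whole list. Of the 29, 1 reached 3 kb (3.45%, 0.0873 to 17.8), against 0.594% of the list and 0.341% on the rest of chromosome 8. Both of these values lie inside that interval. Called width depends on the local number of reads, which was not given.

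**Figure D5:**
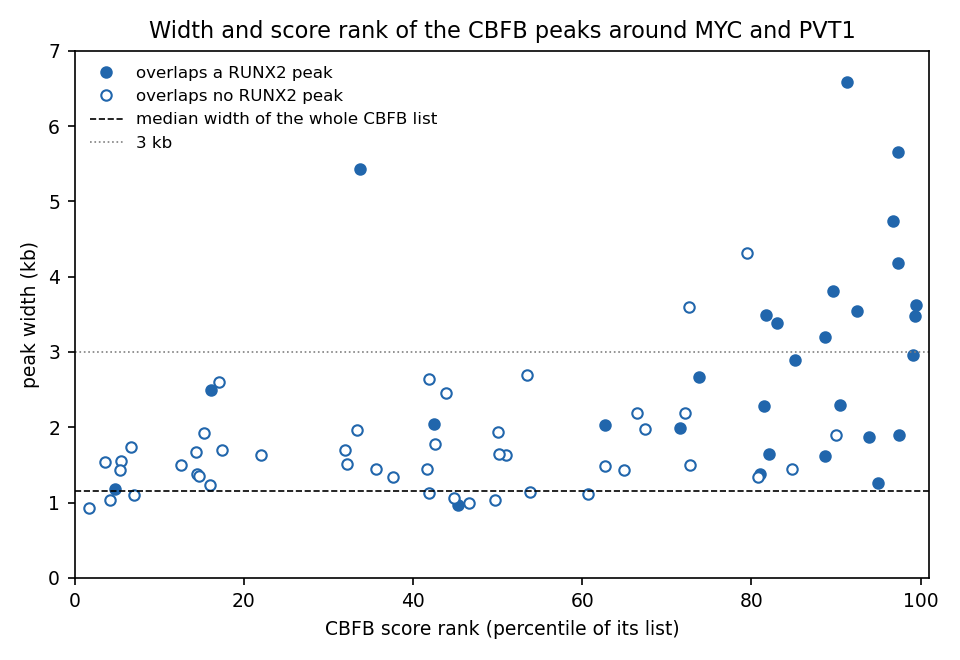
Width in kb of the 75 CBFB peaks around MYC and PVT1 against their score rank, filled where a RUNX2 peak overlaps and open where none does. The dashed line is the median width of the whole CBFB list and the dotted line is 3 kb, which 12 of 29 filled and 2 of 46 open points reach.

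Most of these peaks were away from annotated starts. A midpoint within 5 kb of any annotated transcript start was found for 11 of 29 RUNX2 peaks (37.9%, 20.7 to 57.7), against 45.9% of the whole list, and for 22 of 75 CBFB peaks (29.3%, 19.4 to 41.0), against 46.2%. The CBFB share lies below its background, and the RUNX2 interval includes its own. Even these counts were raised by PVT1, which has 190 annotated transcripts with 132 different starts. Only 2 RUNX2 and 5 CBFB peaks lay within 5 kb of the gene start of MYC or PVT1. The rest of gene bodies held 51.7% of RUNX2 and 56.0% of CBFB peaks, against 34.1% and 34.5%.

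The RUNX core motif, TGTGGT on either strand, was found within 100 bp of the midpoint in 10 of 29 RUNX2 peaks (34.5%, 17.9 to 54.3) and 22 of 75 CBFB peaks (29.3%, 19.4 to 41.0). The backgrounds were 43.2% and 41.6% of the whole lists, and 12.9% (12.2 to 13.5) of 11312 stretches of the same length in the window that touched no peak. The core was thus more frequent than in the sequence around the peaks, and for CBFB less frequent than in its list. Anywhere in the peak, the core was found in 21 of 29 RUNX2 peaks (72.4%) and 71 of 75 CBFB peaks (94.7%), against 78.1% and 80.9% of the lists. The CBFB share was then above that of its list, but these peaks are wide, and per kb they held 1.10 cores against 1.37 in the whole list and 0.688 outside peaks. No copy was present in the RUNX2 peak of 74.58 over the MYC start or in the highest-ranked RUNX2 peak, of 250.33. A match describes the letters only, and RUNX1 and RUNX3 recognize the same core.

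Finally, other genes of the MYC and MAX network, whose proteins pair with each other or with MYC, were looked up in both lists. RUNX2 peaks lay within 25 kb of 5 of 14 genes (35.7%, 12.8 to 64.9), against the background of 36.2%, and CBFB peaks within 25 kb of 10 (71.4%, 41.9 to 91.6), against 62.3%. Both shares are near the background. The RUNX2-bound genes were MYC, MNT, MLX, MLXIPL and ZBTB17. MNT, which encodes a repressor that competes with MYC for MAX, had a RUNX2 peak of 190.67 at percentile 88.3 over its start, the highest ranked of the 5 genes and higher than the peak at MYC. No peak of either list lay within 25 kb of MYCN and MYCL, the close relatives of MYC, of MAX, its obligate partner, or of MXD1. MGA had 5 CBFB peaks, the top one at percentile 89.5, and no RUNX2 peak.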

How the data were processed

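RUNX2 and CBFB ChIP-seq peaks of SAOS2 cells were analysed from 2 deposited lists, 1 per antibody. Peaks were identified by the authors with the MACS algorithm, and the deposited score of each peak was read as -10 times log10 of its p-value, a reading that rests on the tool and the range of the values, which start at 50. The submitters' processing notes name MACS 1.4.1, CASAVA 1.8.2 and hg19. The aligner, the calling threshold, the depth and whether the input served as the control were not given in the sources used here. Coordinates are hg19 (GRCh37), counted from 1.

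Gene bodies were those of GENCODE release 44 lifted to GRCh37. Samples were grouped by title. The window, the gene lists and the comparisons were chosen with earlier results of these data known. By rule, MYC, PVT1, the genes of a locus list and of a MYC and MAX list with peaks within 25 kb, the 15 highest RUNX2 peaks and the 10 highest CBFB peaks were named. RUNX1, SEPTIN9 and CASC15 were named after their counts were seen. Overlap meant at least 1 bp, and intervals are exact Clopper-Pearson. Unplaced and alternate contigs were left out wherever the annotation or the sequence was needed. The overlap step was tested on simulated data. Alternatives changed the flank, overlap, score limit, motif reach and reference region. Python 3.11.15, numpy 2.4.6, pandas 2.3.3, scipy 1.17.1 and matplotlib 3.10.9 were used.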

Additional observations from a re-analysis of the deposited data

How the results depend on the processing

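Of 32 alternatives to 11 results, 19 left the value within its interval or within 1.5 times the count. With peaks at or above the median score of their list, 41 CBFB peaks remained. When at least 50% of each peak had to be shared, 58.6% of RUNX2 and 22.7% of CBFB peaks overlapped (whole lists 75.2% and 27.4%), and with midpoints within 200 bp, 41.4% and 16% did (68.8% and 25.1%). Under both definitions the window lay below the whole lists, where it lay above them with 1 bp. Only for RUNX2 with midpoints within 200 bp was the list value outside the exact interval of the window (23.5 to 61.1). The other differences, also those with 1 bp, were within counting error. With as many top CBFB peaks as there are RUNX2 peaks, the shares were 82.8% and 69.7% (69.7% and 67.9%). The RUNX core was found in 72.4% of RUNX2 and 94.7% of CBFB peaks when searched anywhere in the peak (whole lists 78.1% and 80.9%), which for CBFB put the window above its list instead of below it, and in 13.8% and 17.3% within 50 bp of the midpoint. Against the rest of chromosome 8, the density ratio rose to 5.67 for RUNX2 and 4.85 for CBFB. The cause of these shifts was not tested. RefSeq gene bodies in place of those of GENCODE were not run, since the RefSeq table used here is on another build. No paired analysis was possible because only a single library was made with each antibody. The unknown depth and the lack of replicates limit every value.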

Other observations

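Other short motifs were counted within 100 bp of the midpoints in the same way, on both strands. The AP-1 motif TGANTCA, bound by FOS and JUN proteins, was found in 7 of 29 RUNX2 peaks (24.1%, 10.3 to 43.5), against 13.1% of the whole RUNX2 list, and in 6 of 75 CBFB peaks (8%), against 11.9%. In stretches of the window that touched no peak it was found in 6.78%. The TEAD motif GGAATG was found in 20.7% of RUNX2 and 13.3% of CBFB peaks, against 15.5% and 14.4% of the lists and 11.3% outside peaks. The ETS motif CCGGAAG was found in 0 of 29 RUNX2 and 3 of 75 CBFB peaks (3.03% and 2.43% of the lists), and the E-box CACGTG, the motif of MYC and MAX, in 1 of 29 and 0 of 75 (3.07% and 3.25%), counts too small to tell from those shares. All the intervals for RUNX2 included the value of its list. The median GC content around the midpoint was 46.3% for RUNX2 and 43.3% for CBFB peaks of the window, against 49.8% and 48.8% in the lists and 39.8% outside peaks.

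How rare a one-sided layout is depended on the number of peaks required. With at least 10 RUNX2 peaks within 1 Mb of the start, 215 of 9061 protein-coding genes (2.37%) had all of them on 1 side, and with at least 20, 8 of 2211 (0.362%).

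The first peaks past the downstream edge of the window overlapped each other, at 130284844 to 130286233 for RUNX2 (score 99.92, percentile 61.7) and 130284677 to 130286558 for CBFB (score 277.91, percentile 79.98).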
